A study of Mus musculus with 9 samples.

Results

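The genes described here are 10 transcriptional regulators of thymocytes: the high mobility group factors Tcf7 (which encodes TCF-1) and Lef1, the E protein genes Tcf3 (E2A) and Tcf12 (HEB), the Id factor genes Id2 and Id3, and Satb1, Bcl11b, Ikzf1 (Ikaros) and Ets1. They form a set given by symbol, put together with earlier results of these data known, and each of the 10 symbols matched 1 of the 53715 rows of the deposited RNA-seq count table. The series compared mouse thymocytes with and without SRSF1, an RNA-binding protein of pre-mRNA splicing. The comparison addresses which transcripts differ in level between the groups, whether directly or indirectly. The groups were 3 WT samples and 2 SRSF1KO samples, the latter of genotype Srsf1 fl/fl with Lck cre in the heterozygous state, so that Cre recombinase is driven by the Lck promoter in the T lineage. All samples came from C57BL/6 mice aged 6 to 8 weeks and were sorted as TCRβ+ CD69+ CD24+ CD4+ CD8+ cells of the thymus. The labels give no floxed or Cre allele for the WT samples, and they do not say whether the replicates were separate animals. P-values therefore measure the spread between these 5 samples, which may in part be technical. Values per library are given in replicate order, WT first, as CPM, which here are counts scaled to library size with TMM factors.

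E proteins are basic helix-loop-helix factors that bind E-box sequences as dimers, and in double-positive thymocytes dimers of the Tcf3 and Tcf12 products hold cells at this stage until the T cell receptor signals. Id proteins lack the basic region, pair with E proteins and keep them from DNA; Id3 is induced by receptor signalling through Egr factors during positive selection. TCF-1 and LEF-1 are close relatives that bind DNA through a high mobility group box, set up T lineage identity and CD4 lineage choice, and recruit β-catenin or TLE corepressors. SATB1 organises chromatin, BCL11B and Ikaros recruit the NuRD chromatin remodelling complex, and ETS1 is the founding member of the ETS family; all are needed for normal thymocyte development.

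Of the 10 genes, 9 had windows in the RefSeq promoter table (GRCm38.p6), and for 4 of them (Lef1, Id2, Id3 and Satb1) a window began at the outer end of the annotated gene. The 250 bases before those starts are shown for all 4 genes that met this condition. The 4 include the Id factor pair, a member of the TCF/LEF pair and the gene with the least spread between WT libraries. The windows lie at chr3:131110047-131110296 (plus strand), chr12:25096093-25096342 (minus strand), chr4:136143572-136143821 (plus strand) and chr17:51833291-51833540 (minus strand). Each is written 5′ to 3′ on the gene's strand, and capitals mark every match, on either strand, to 6 motifs. These were the E-box, spelled CANNTG, and the TCF/LEF core, spelled CTTTGA. The EGR core was searched as GTGGGCG and that of ETS factors as CCGGAAG. The CCAAT box and the letters TATAA were searched as written, and in these windows no matches overlapped.
Lef1: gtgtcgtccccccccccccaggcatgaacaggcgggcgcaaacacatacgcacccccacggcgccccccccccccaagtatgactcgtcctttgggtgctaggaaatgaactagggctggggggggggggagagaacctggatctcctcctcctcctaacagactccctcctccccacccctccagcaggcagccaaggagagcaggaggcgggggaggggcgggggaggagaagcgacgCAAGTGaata
Id2: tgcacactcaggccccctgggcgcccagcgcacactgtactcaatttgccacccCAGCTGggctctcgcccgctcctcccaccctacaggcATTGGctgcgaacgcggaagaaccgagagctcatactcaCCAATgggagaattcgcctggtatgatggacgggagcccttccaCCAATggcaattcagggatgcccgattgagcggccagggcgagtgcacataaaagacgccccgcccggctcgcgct
Id3: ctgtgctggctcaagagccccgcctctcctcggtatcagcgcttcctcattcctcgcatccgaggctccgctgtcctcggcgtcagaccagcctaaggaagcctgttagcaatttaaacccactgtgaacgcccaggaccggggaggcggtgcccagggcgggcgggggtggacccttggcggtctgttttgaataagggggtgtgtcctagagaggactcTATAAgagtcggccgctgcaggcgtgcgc
Satb1: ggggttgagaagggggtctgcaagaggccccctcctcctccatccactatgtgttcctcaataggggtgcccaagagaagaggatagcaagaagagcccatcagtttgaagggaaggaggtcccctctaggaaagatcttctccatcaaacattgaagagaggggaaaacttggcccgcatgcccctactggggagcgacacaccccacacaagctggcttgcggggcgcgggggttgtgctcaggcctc

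The Id2 window held an E-box of the form CAGCTG and 3 CCAAT matches, of which 1 reads ATTGG on the gene's strand, and the Id3 window held a TATAA match 29 to 25 bases before the start and no E-box. The Lef1 window held 1 E-box, CAAGTG, 10 to 5 bases before the start, and the Satb1 window held no match. Of all 32851 windows of this length, 66.2% held CANNTG, 33.8% CCAAT, 22.8% TATAA, 13.8% CTTTGA, 7.02% GTGGGCG and 6.91% CCGGAAG. These matches describe letters and are not binding data.

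The libraries held 36026006 to 38985285 counts, and no 2 of them agreed within sampling noise. Srsf1, the targeted gene, measured 96.9, 122.7 and 103.1 CPM in the WT libraries against 42.6 and 30.9 CPM in SRSF1KO. Its log2 fold change was −1.55 ± 0.19 (SE, edgeR, adjusted p = 0.0483). The 9 genes listed for the sort gate, among them Trac and Cd3e, which the gate does not name, were all present. Their median log2 fold change was −0.02, with none past edgeR's test or limma-voom. The 2 with the smallest p were Cd4, at 0.45 ± 0.11, and Trac, the T cell receptor alpha constant gene, at −0.24 ± 0.08 on the log2 scale (SE, edgeR, adjusted p = 0.136 and 0.230). DESeq2 called 1 of the 9, Cd4, higher (2.32% of all genes). Cd69, which the gate names, measured 203, 469 and 271 CPM in the WT libraries against 226 and 228 CPM in SRSF1KO. Its log2 fold change was −0.47 ± 0.31 (SE, edgeR, adjusted p = 0.561). Sex-linked transcripts split the libraries into a male pattern (WT replicate 2, SRSF1KO replicate 1) and a female pattern (the other 3). Each group held both patterns, so its libraries were not all repeats of the same animal. For WT replicates 1 and 3, which share a pattern, this cannot be told. The summed level of 6 erythroid genes was 2.54 to 12.7 CPM in WT and 22.9 to 99.1 CPM in SRSF1KO, highest in SRSF1KO replicate 1, and its part in the results below was not tested. Of these, Hba-a2 had a log2 fold change of 3.35 ± 0.77 and Hbb-bt of 4.31 ± 1.08 (SE, edgeR, adjusted p = 0.128 and 0.150), and reads of the near-identical globin copies may be split between them. DESeq2 called both higher (2.32% of all genes), and limma-voom neither. In bulk RNA, fewer cells expressing a gene and less RNA per cell cannot be told apart.

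The 10 genes had mostly higher values in SRSF1KO, by modest amounts, and none passed the test over all genes. The log2 fold change was positive for 9 of the 10 (49.4% of all genes), between 0.11 and 0.57, and negative for Id2 alone. The median was 0.42, beside −0.01 over all 17351 genes tested. With edgeR's quasi-likelihood test and Benjamini-Hochberg adjustment, 0 of 10 were called higher (0.0519% of all genes were) and 0 lower (0.213% of all genes). At an unadjusted p under 0.05, 8 were higher and 0 lower, against 5.9% and 8.45% of all genes. In 8 of the 10, Tcf7, Tcf3, Tcf12, Id3, Satb1, Bcl11b, Ikzf1 and Ets1, both SRSF1KO libraries lay above all WT libraries, as they did in 15.2% of all genes. None was called lower under any of 13 alternatives.

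The count of the 10 genes called higher depended on the test and on the filter. DESeq2 called 6 of them (Tcf7, Tcf12, Id3, Satb1, Bcl11b and Ikzf1), beside 2.32% of all genes called higher and 3.57% lower. limma-voom called 2 (Tcf7 and Satb1), beside 0.133% and 0.409%. With no filter on low counts edgeR called 5 (Tcf7, Tcf12, Id3, Bcl11b and Ikzf1), beside 0.644% and 1.13%. Where genes needed a mean of 5 CPM or more, it called 5 (Tcf7, Id3, Satb1, Bcl11b and Ikzf1), beside 1.44% and 2.35%. It called 0 of the 10 with DESeq2 size factors (0.0173% of all genes higher, 0.0403% lower) and with upper quartile scaling (0.0519% and 0.202%). A term for the sex pattern gave 0 of the 10 (0% higher and 0.0288% lower over all genes), and a replicate block gave 0 (0% and 0%). No gene at all was called without any 1 WT library (0% and 0%). At an unadjusted p under 0.05 there were 7 of the 10 without WT replicate 1, beside 1903 of 16612 genes in all. Without WT replicate 2 there were 6, beside 2005 of 16558, and without WT replicate 3 there were 7, beside 2079 of 16720. Without SRSF1KO replicate 1 it was 0 of the 10 (0.015% and 0.0399%), and without SRSF1KO replicate 2 also 0 (0.108% and 0.344%).

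**Figure D1:**
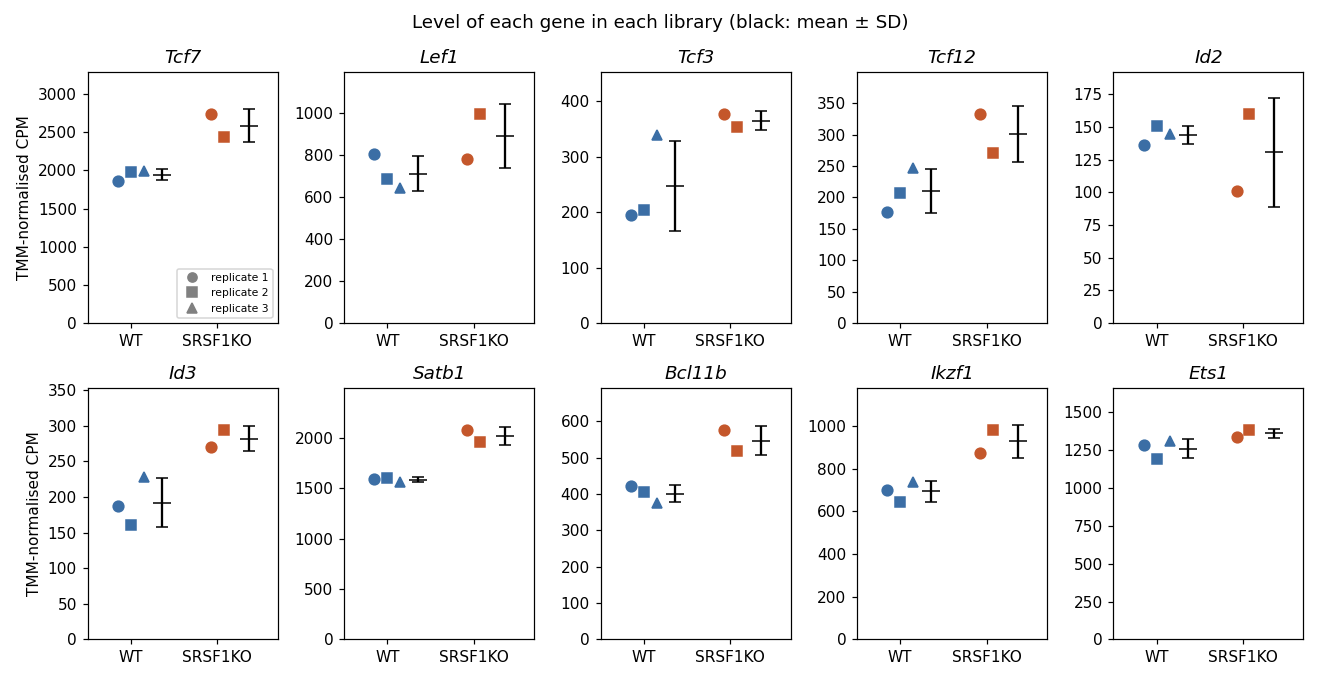
TMM-normalised CPM of each of the 10 genes (vertical axes start at 0 and differ between panels) in the 3 WT and 2 SRSF1KO libraries, each symbol 1 library, with the mean ± SD of each group in black. Both SRSF1KO libraries lie above all WT libraries except for Lef1 and Id2.

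Tcf7 (ENSMUSG00000000782.15, chromosome 11, 52246527 to 52283383, GRCm38) measured 1858, 1983 and 1987 CPM in the WT libraries against 2740 and 2431 CPM in SRSF1KO. The 3 WT libraries lay close together and both SRSF1KO libraries lay above them. The level was 1943 ± 73.3 CPM in WT (SD, n = 3) and 2585 ± 219 CPM in SRSF1KO (SD, n = 2), a fold of 1.33 with a 95% interval of 1.16 to 1.53 (log2 fold change 0.41 ± 0.09 SE, edgeR, adjusted p = 0.118). The adjusted p was 0.00571 with DESeq2 and 0.0449 with limma-voom. Over the alternatives it lay between 0.00571 and 0.482, and the log2 fold change between 0.32 and 0.51. The Tcf7 gene overlaps 332 bases of Skp1, a ubiquitin ligase subunit gene, whose log2 fold change was 0.02 ± 0.09 (SE, adjusted p = 0.969).

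Lef1 (ENSMUSG00000027985.14, chromosome 3, 131110297 to 131224357), the relative of Tcf7 that acts with it in double-positive cells, measured 802, 684 and 642 CPM in the WT libraries against 781 and 995 CPM in SRSF1KO. SRSF1KO replicate 1 lay inside the WT range and SRSF1KO replicate 2 above it. The log2 fold change was 0.32 ± 0.14 (SE, edgeR, adjusted p = 0.344), and it was 0.16 without SRSF1KO replicate 2 and 0.49 without SRSF1KO replicate 1.

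The E protein gene Tcf12 (ENSMUSG00000032228.16, chromosome 9, 71844252 to 72111893) measured 177, 207 and 247 CPM in the WT libraries against 333 and 270 CPM in SRSF1KO. Both SRSF1KO libraries were the highest, with SRSF1KO replicate 2 close above WT replicate 3. The fold was 1.43, with an interval of 1.11 to 1.85 (log2 fold change 0.52 ± 0.16 SE, edgeR, adjusted p = 0.214). The adjusted p was 0.0284 with DESeq2 and reached 0.458 over the alternatives. Between the WT and SRSF1KO libraries of the male pattern the log2 difference was 0.69, and between those of the female pattern 0.37.

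Tcf3 (ENSMUSG00000020167.14, chromosome 10, 80409541 to 80433976), the other E protein gene, measured 196, 205 and 340 CPM in the WT libraries against 378 and 353 CPM in SRSF1KO. WT replicate 3 stood near the SRSF1KO libraries and apart from the other 2 WT libraries. The WT coefficient of variation was 32.8%, the widest of the 10 genes, and the log2 fold change of 0.57 ± 0.23 (SE, edgeR, adjusted p = 0.328) became 0.88 without WT replicate 3 and 0.43 without WT replicate 1. Gene-level counts cannot tell E12 from E47, the splice forms of Tcf3, nor the isoforms of Tcf7, Lef1, Tcf12 and Ikzf1.

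The fold changes of the 2 Id factor genes had opposite signs, and neither passed the test. Id3 (ENSMUSG00000007872.3, chromosome 4, 136143822 to 136145392) measured 187, 161 and 229 CPM in the WT libraries against 270 and 294 CPM in SRSF1KO. Both SRSF1KO libraries lay above the WT range, and the fold was 1.47 with an interval of 1.15 to 1.87 (log2 fold change 0.55 ± 0.15 SE, edgeR, adjusted p = 0.176). The adjusted p was 0.0146 with DESeq2 and reached 0.407 over the alternatives.

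Id2 (ENSMUSG00000020644.9, chromosome 12, 25093799 to 25096092), which is known for its place in innate lymphocytes and effector T cells, measured 136, 151 and 144 CPM in the WT libraries against 101 and 160 CPM in SRSF1KO. The SRSF1KO libraries lay on opposite sides of the WT range, and the interval of the fold, 0.67 to 1.23, held both directions (log2 fold change −0.14 ± 0.19 SE, edgeR, adjusted p = 0.821). Without SRSF1KO replicate 1 the log2 fold change was 0.16, and without SRSF1KO replicate 2 it was −0.49. It was −0.58 between the libraries of the male pattern and 0.19 between those of the female pattern, which are the same split of the SRSF1KO libraries.

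**Figure D2:**
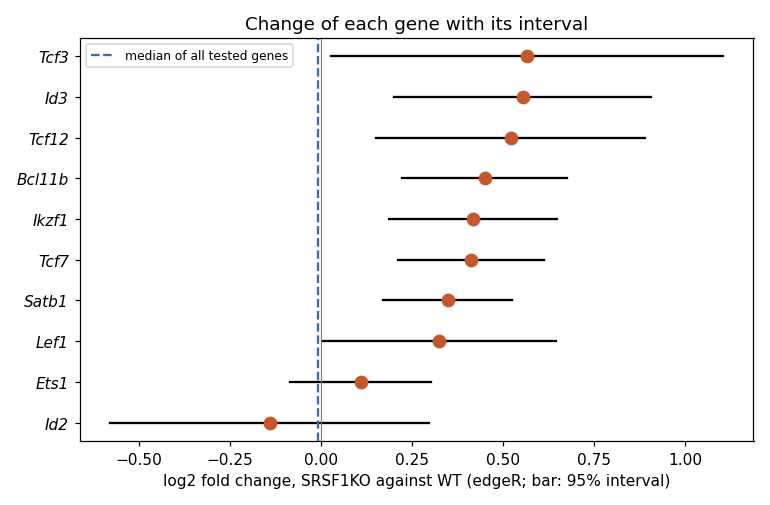
Log2 fold change of each gene in SRSF1KO against WT from edgeR, with its 95% interval as a bar and the median of all tested genes (−0.01) as a dashed line. The intervals of Ets1 and Id2 include 0, that of Lef1 begins at 0.0029, and none of the 10 genes passed over all genes tested.

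Ratios within a library were computed for 6 gene pairs, and the widest difference between groups was that of Id2 to Id3. Its log2 value was −0.46, −0.09 and −0.66 in the WT libraries against −1.42 and −0.88 in SRSF1KO, so both SRSF1KO libraries were below all WT libraries. The means were −0.40 ± 0.29 (SD, n = 3) and −1.15 ± 0.38 (SD, n = 2), a difference of −0.74 (exact permutation test, two-sided, p = 0.1, the smallest that 3 against 2 samples allow, so no such ratio can pass 0.05). Adjusted over the 6 pairs it was 0.6. The balance of Id3 with its E protein partners overlapped between the groups. The log2 ratio of Id3 to Tcf12 was −0.13 ± 0.22 in WT and −0.09 ± 0.30 in SRSF1KO, and that of Id3 to Tcf3 was −0.33 ± 0.26 and −0.37 ± 0.16 (SD, n = 3 and n = 2). The ratio of Tcf3 to Tcf12 likewise overlapped, at 0.20 ± 0.24 and 0.28 ± 0.14, as did that of Lef1 to Tcf7, at −1.46 ± 0.22 and −1.55 ± 0.37. The log2 ratio of Satb1 to Bcl11b was 1.92, 1.98 and 2.06 in WT and 1.85 and 1.92 in SRSF1KO, with a difference of −0.10 between the means (exact permutation test, two-sided, p = 0.2) and SRSF1KO replicate 2 just below WT replicate 1. These ratios are of counts not scaled for transcript length, so they compare libraries and not the abundance of the 2 genes.

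**Figure D3:**
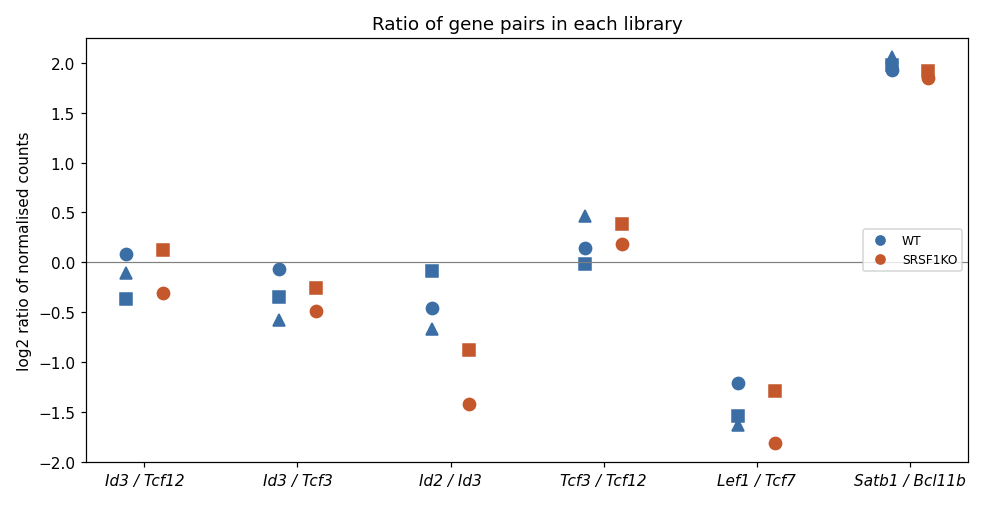
Log2 ratio of normalised counts for 6 gene pairs in each library (blue, 3 WT; orange, 2 SRSF1KO; circles, squares and triangles are replicates 1, 2 and 3). For Id2 to Id3 both SRSF1KO libraries, at −1.42 and −0.88, lie below the lowest WT library at −0.66.

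The chromatin organiser gene Satb1 (ENSMUSG00000023927.15, chromosome 17, 51736187 to 51833290) measured 1595, 1602 and 1557 CPM in the WT libraries against 2077 and 1957 CPM in SRSF1KO. The WT coefficient of variation was 1.51%, the narrowest of the 10, and both SRSF1KO libraries were clear of it. The fold was 1.27, with an interval of 1.13 to 1.44 (log2 fold change 0.35 ± 0.08 SE, edgeR, adjusted p = 0.127). The adjusted p was 0.0137 with DESeq2 and 0.0444 with limma-voom, and reached 0.518 over the alternatives.

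Bcl11b (ENSMUSG00000048251.15, chromosome 12, 107910403 to 108004145), a zinc finger gene of T lineage commitment, measured 421, 406 and 375 CPM in the WT libraries against 576 and 518 CPM in SRSF1KO. The groups did not overlap, and the fold was 1.37, or 0.45 ± 0.10 on the log2 scale with an interval of 0.22 to 0.67 (SE, edgeR, adjusted p = 0.122). The adjusted p was 0.00499 with DESeq2 and reached 0.481 over the alternatives. The log2 difference was 0.50 between libraries of the male pattern and 0.38 between those of the female pattern.

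Ikzf1 (ENSMUSG00000018654.17, chromosome 11, 11684962 to 11772930), which encodes the zinc finger factor Ikaros, measured 700, 642 and 739 CPM in the WT libraries against 873 and 981 CPM in SRSF1KO. Both SRSF1KO libraries were above the WT range, with a fold of 1.34 and an interval of 1.14 to 1.57 (log2 fold change 0.42 ± 0.10 SE, edgeR, adjusted p = 0.135). The adjusted p was 0.0121 with DESeq2 and reached 0.472 over the alternatives. It differed by 0.44 and 0.45 on the log2 scale in the male and the female pattern.

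Ets1 (ENSMUSG00000032035.15, chromosome 9, 32636241 to 32757820) measured 1281, 1190 and 1311 CPM in the WT libraries against 1337 and 1383 CPM in SRSF1KO. The SRSF1KO libraries lay just above the WT range. The fold was 1.08, with an interval of 0.94 to 1.23 that holds both directions (log2 fold change 0.11 ± 0.08 SE, edgeR, adjusted p = 0.622; 0.07 without WT replicate 2).

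Over the 5 libraries the members most alike in pattern were Satb1 and Bcl11b, with a Pearson r of 0.98 between their log2 CPM. The nearest to Tcf7 was Satb1 at 0.97, and the nearest to Id3 was Ikzf1, also at 0.97. Id2 correlated with no other member above 0.12, and was the least alike for each of the other 9. Among 9231 other genes whose mean reached 5 CPM, with predicted genes, pseudogenes, receptor segments and rows without a symbol left out, the highest r with Tcf7 were those of Lgals3, Trdc and Pigl (0.997, 0.997 and 0.996). With Id3 they were those of Xlr4a, Rnf41 and Celf1 (0.998, 0.997 and 0.996). These correlations describe 5 libraries that share the contrast between the groups and the scaling.

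**Figure D4:**
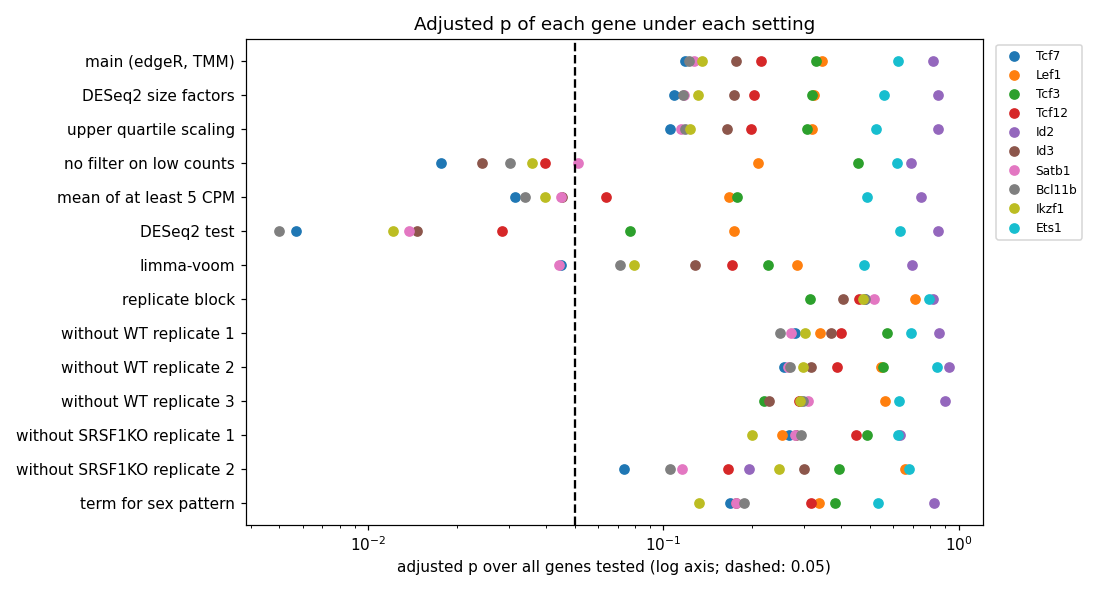
Adjusted p of each gene over all genes tested (horizontal log axis, dashed line at 0.05) under the main test and 13 alternatives (rows). Points lie left of the line for 5 of the 10 genes with no filter, 5 with the filter at 5 CPM, 6 with DESeq2 and 2 with limma-voom.

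Related genes were read from lists that may share genes, such as Tox and Cd4, and none of their members passed with edgeR over all genes tested. The counts of positive values in these lists stand beside 49.4% of all genes. With limma-voom Runx3 alone passed, lower in SRSF1KO (0.409% of all genes), and the calls of DESeq2 are given list by list. Of 15 tested relatives and cofactors of TCF-1 and LEF-1, 13 had positive values, with a median log2 fold change of 0.31 (0.19 without SRSF1KO replicate 2), and 8 had both SRSF1KO libraries above WT (15.2% of all genes) against 1 below (17.8%). At an unadjusted p under 0.05 there were 5 higher and 1 lower (5.9% and 8.45% of all genes), and DESeq2 called 1, Sox4, higher (2.32%). Among them Sox4, a high mobility group factor of the SOX family, averaged 46.4 ± 12.4 CPM in WT against 74.3 ± 2.51 CPM in SRSF1KO (SD; log2 fold change 0.68 ± 0.22 SE, adjusted p = 0.244). Tox, which is needed for the CD4 lineage, averaged 321 ± 41.4 and 419 ± 22.1 CPM (SD; log2 fold change 0.38 ± 0.12 SE, adjusted p = 0.231).

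Of 10 tested E protein relatives, Id factors and partners, 7 were positive (median 0.27), and the median was −0.07 without SRSF1KO replicate 1 and −0.03 without WT replicate 1. An unadjusted p under 0.05 was reached by 1, higher (5.9% of all genes), and DESeq2 called 0. Cbfa2t2, a corepressor of the ETO family that binds E proteins, differed by 0.48 ± 0.17 on the log2 scale (SE, adjusted p = 0.263). Id1, a further Id factor, was low, at 0.90, 3.85 and 2.54 CPM in the WT libraries against 0.50 and 0 CPM in SRSF1KO (edgeR, adjusted p = 0.365). Its relative Id4 had 0 counts in all 5 libraries, which allows up to 0.0839 CPM, taking 3 counts as the limit and covering counting error only.

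Genes known as targets of E proteins in thymocytes had positive values in all 8 cases, between 0.33 and 0.90 (median 0.58), and 0 passed. Of these 8, 6 were at an unadjusted p under 0.05 (5.9% of all genes were higher at that p), and both SRSF1KO libraries lay above WT in 6 (15.2% of all genes). DESeq2 called 3 of them higher (2.32% of all genes): Rag1, of the recombinase that assembles receptor genes, Cd4 and Gfi1. The median was 0.35 without SRSF1KO replicate 1 and 0.76 without SRSF1KO replicate 2. Gfi1, a zinc finger repressor, measured 14.6, 16.7 and 14.6 CPM in the WT libraries against 29.6 and 27.5 CPM in SRSF1KO, a log2 fold change of 0.90 ± 0.20 (SE, edgeR, adjusted p = 0.127). Cd4, counted here and among targets of TCF-1, differed by 0.45 ± 0.11 on the log2 scale (SE, adjusted p = 0.136). Of the 8 tested targets of TCF-1, 7 were positive (median 0.47), with 5 higher and 1 lower at an unadjusted p under 0.05 (5.9% and 8.45% of all genes). That median was 0.39 without WT replicate 2, 0.38 without SRSF1KO replicate 1 and 0.35 without SRSF1KO replicate 2. DESeq2 called Gata3 and Cd4 higher and Myc lower (2.32% and 3.57% of all genes). The exception was the proliferation gene Myc, at 96.8, 104 and 90.0 CPM in WT and 46.6 and 71.2 CPM in SRSF1KO (−0.72 ± 0.19 SE, adjusted p = 0.169).

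Of 5 genes, Egr factors upstream of Id3 and their NAB corepressors, 3 were positive (median 0.26). As factors and corepressors are pooled, the count and the median give no direction for signalling to Id3. Without SRSF1KO replicate 2 the median was 0.10, without WT replicate 2 it was 0.14, and it was 0.42 without SRSF1KO replicate 1 and 0.44 without WT replicate 3. An unadjusted p under 0.05 was reached by 1, higher (5.9% of all genes), and DESeq2 called 0. Egr1, an immediate early gene of receptor signalling, averaged 353 ± 48.6 CPM in WT against 479 ± 72.4 CPM in SRSF1KO (SD; log2 fold change 0.44 ± 0.14 SE, adjusted p = 0.242). The corepressor gene Nab2 differed by 0.47 ± 0.21 on the log2 scale (SE, adjusted p = 0.354). Negative were Egr3, at −0.67 ± 0.60, and Nab1, at −0.27 ± 0.16 (SE, edgeR, adjusted p = 0.701 and 0.496). For Nab1 both SRSF1KO libraries lay below WT (17.8% of all genes). All 13 tested ETS family relatives were positive, between 0.10 and 0.50 (median 0.25), with Ets2 at 0.50 ± 0.11 and Elk4 at 0.39 ± 0.12 (SE, adjusted p = 0.127 and 0.217). These were the 2 at an unadjusted p under 0.05 (5.9% of all genes higher), and DESeq2 called 1 of them, Ets2 (2.32%). In 6 of the 13 both SRSF1KO libraries lay above WT (15.2% of all genes), and in 0 below (17.8%).

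The other Ikaros family genes went both ways, with 2 of 4 positive (median −0.12, but 0.24 at a mean of 5 CPM or more and 0.01 without SRSF1KO replicate 1). Ikzf2, which encodes Helios, stood at 0.23 ± 0.11 and Ikzf4 at −0.46 ± 0.25 (SE, adjusted p = 0.394 and 0.462). The 14 NuRD subunit genes, partners of Ikaros and BCL11B, had a median of −0.02 (−0.10 to 0.08 with 1 library left out) with 6 positive, among them Gatad2a at 0.28 ± 0.10, while Mbd2 stood at −0.63 ± 0.27 (SE, adjusted p = 0.287 and 0.352). Of these Ikaros family and NuRD genes, Gatad2a alone had an unadjusted p under 0.05 (5.9% of all genes higher), and DESeq2 called 0. Bcl11a, the relative of Bcl11b, stood at 0.11 to 1.48 CPM in WT and 1.36 to 1.43 CPM in SRSF1KO.

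Among 12 other thymocyte transcription factors 7 were positive (median 0.43, but 0.15 without SRSF1KO replicate 1 and 0.18 without SRSF1KO replicate 2), and the pair with the smallest p were negative. At an unadjusted p under 0.05 there were 5 higher (5.9% of all genes) and 3 lower (8.45%). DESeq2 called Gata3, Runx1 and Tox2 higher (2.32% of all genes) and Runx3 and Foxo1 lower (3.57%). Runx3, a factor of the CD8 lineage, measured 119, 102 and 111 CPM in the WT libraries against 38.3 and 57.7 CPM in SRSF1KO (−1.20 ± 0.19 SE, edgeR, adjusted p = 0.0637). Foxo1, a forkhead factor of T cell quiescence and homing, measured 64.6, 77.6 and 60.8 CPM in the WT libraries against 27.9 and 35.4 CPM in SRSF1KO (−1.10 ± 0.18 SE, adjusted p = 0.0712). Both SRSF1KO libraries lay below the WT range for each. In this list that held for 3 genes (17.8% of all genes), with 5 above the WT range (15.2%). Of the 10 genes, 0 lay below it.

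**Figure D5:**
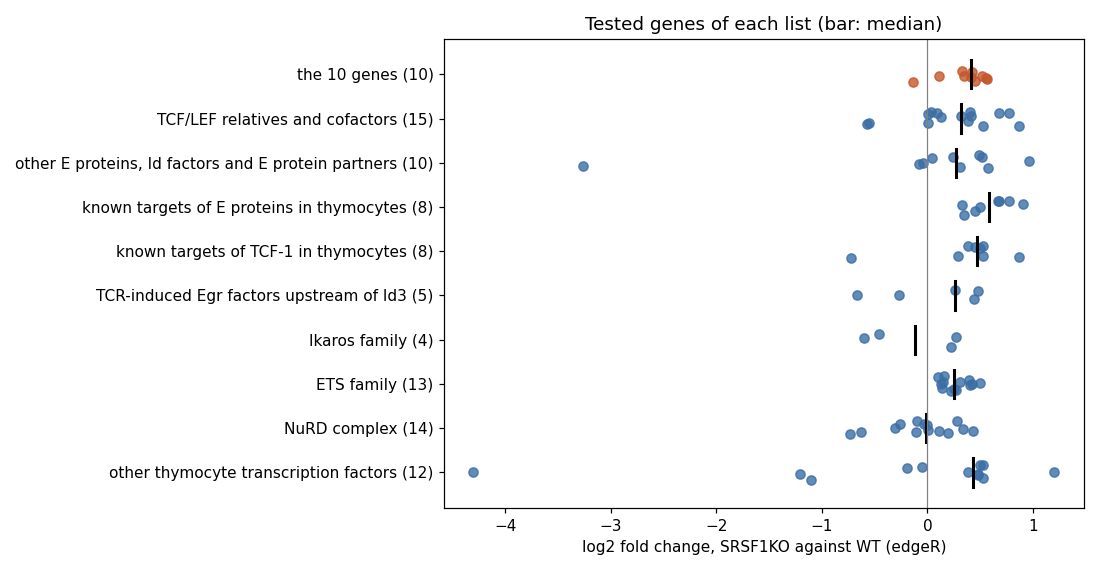
Log2 fold change in SRSF1KO against WT of each tested gene (points) in the 10 genes and 9 lists, with the number tested in brackets and the median as a bar. The targets of E proteins have the highest median of the lists drawn, at 0.58, and the NuRD genes lie around 0.

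Markers of other cell types were read beside these values. The gate was on TCRβ, CD4 and CD8 together, and how far it removed such cells was not tested. The 6 genes of double-negative thymocytes summed to 111 to 136 CPM in WT and 81.6 to 87.3 CPM in SRSF1KO. Most of this difference lay in Dtx1 (means of 68.0 and 34.5 CPM) and Kit (16.7 and 7.42 CPM). Their log2 fold changes were −0.98 ± 0.21 and −1.17 ± 0.37 (SE, edgeR, adjusted p = 0.127 and 0.230). The groups overlapped for Spi1 (0.42 ± 0.45), Il2ra (0.08 ± 0.30), Cd44 (−0.12 ± 0.24) and Hes1 (−0.59 ± 0.66, SE). The 4 genes of regulatory T cells summed to 168 to 190 CPM in WT and 198 to 199 CPM in SRSF1KO, most of it Ikzf2, while Foxp3 stood at 8.74 ± 1.80 and 4.57 ± 3.38 CPM (SD, n = 3 and n = 2). The 8 genes of innate lymphoid and NK cells, in which Id2 is high, summed to 68.1 to 75.6 CPM in WT and 67.2 to 78.5 CPM in SRSF1KO, with Il22 at 0 in all libraries, and log2 fold changes of 0.68 ± 0.22 for Gzma and −1.10 ± 0.24 for Rora (SE, adjusted p = 0.233 and 0.122). B cell genes (6), myeloid and dendritic genes (8) and thymic epithelial genes (4) summed to 30.2 to 50.7, 71.5 to 85.0 and 13.7 to 14.0 CPM in WT and to 44.6 to 48.7, 79.4 to 85.3 and 13.7 to 23.5 CPM in SRSF1KO. Siglech, a plasmacytoid dendritic cell gene, measured 3.86, 3.68 and 4.02 CPM in the WT libraries against 5.47 and 9.68 CPM in SRSF1KO. Thus both SRSF1KO libraries lay above WT (15.2% of all genes). Its log2 difference was 0.97 ± 0.39 (SE, edgeR, unadjusted p = 0.0385, adjusted p = 0.320). Itgax, the other named gene of that list, lay at 0.13 to 2.64 CPM in WT against 0.28 and 0 CPM in SRSF1KO. The B cell genes Ms4a1 and Ebf1 differed by 0.69 ± 0.66 and −1.37 ± 1.37, and the epithelial genes Epcam and Krt8 by 0.33 ± 0.27 and 1.54 ± 1.21 on the log2 scale (SE, adjusted p between 0.637 and 0.737). None of these marker genes passed with edgeR or limma-voom, while DESeq2 called Kit, Dtx1 and Rora lower (3.57% of all genes). The part of the marker genes in the values of the 10 genes was not tested.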

How the data were processed

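Gene expression was measured by RNA-seq of sorted thymocytes in 3 WT and 2 SRSF1KO samples, grouped by their titles; 4 samples of CLIP-seq are not analysed here. The values the authors deposited are unnormalised whole-number counts per gene. Per the labels' protocols, libraries were made by Smart-seq2. Per the submitters' processing notes, HTSeq 0.6.1, DESeq2 1.20.0, HOMER 4.9.1, Bowtie2 2.1.0, cutadapt 1.17, FastQC 0.11.5, Trim Galore and build mm10 were used, with no roles named. Aligner, annotation and strand setting of the RNA-seq: not given in the sources used here. Reads of overlapping genes therefore cannot be told apart. Symbols came from a names table (95 IDs without one) and coordinates from RefSeq GRCm38.p6.

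All genes were fitted with edgeR 4.0.16 (R 4.3.3): TMM scaling, filterByExpr (17351 genes kept), the quasi-likelihood test with group as its only term, Benjamini-Hochberg adjustment over all tested genes and a threshold of 0.05, two-sided. SE was the absolute log2 fold change divided by the square root of F, and 95% intervals from the SE and the test's degrees of freedom. Ratios and correlations used TMM-normalised CPM, correlations with 0.5 added before log2. The lists name the 2 genes with the smallest p where none passed. Rag1, Gata3, Runx1 and Tox2 were named after their values were seen, as DESeq2 calls. Cd69, Egr3, Nab1, Spi1, Il2ra, Cd44 and Hes1 were also named after their values were seen. The listed Tle5 had no matching symbol. Alternatives were other scalings and filters, DESeq2 1.42.0, limma-voom (limma 3.58.1), a replicate block, leaving out each library, and a term for the sex pattern added after the data were seen. The scripts were tested on simulated counts. The 10 genes and the lists were chosen with earlier results of these data known.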

Additional observations from a re-analysis of the deposited data

How the results depend on the processing

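Of the 10 genes, 5 were called higher with no filter on low counts, 5 with the filter at 5 CPM, 6 with DESeq2 and 2 with limma-voom, and 0 under the other 9 of 13 alternatives, of which 5 leave out 1 library each. The direction of 9 genes held in all 13; that of Id2 turned to 0.16 without SRSF1KO replicate 1 and was −0.49 without SRSF1KO replicate 2. Over all genes, against 9 called higher and 37 lower, the counts were 3 and 7 with DESeq2 size factors (30% of calls higher against 19.6%), 198 and 346 with no filter, 143 and 233 with the filter at 5 CPM, 408 and 627 with DESeq2, 23 and 71 with limma-voom, and 0 and 5 with the sex pattern, a term chosen after seeing the data. Leaving out 1 library gave 0 to 21 higher and 0 to 67 lower, with 0 called without any 1 WT library.

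With the replicate block 0 genes were called higher and 0 lower, with 1640 of 17351 at an unadjusted p under 0.05, among them 7 of the 10. Deviations of same-numbered libraries from their group means correlated at −0.05 and −0.01. With 2 SRSF1KO libraries these deviations mirror each other, so the values cannot tell whether the numbers pair the libraries.

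Bcl11a, the only tested relative of Bcl11b and Satb1, has no value with the filter at 5 CPM. With 1 SRSF1KO library left, that library is assumed to vary like WT. The smallest count of any of the 10 genes was 3633, in reads of Smart-seq2 libraries. Their precision rests on 3 WT and 2 SRSF1KO libraries, and the part of depth in it was not tested.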
